A study of Bos taurus with 20 samples.

Results

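Secreted Wnt antagonists are extracellular proteins that keep Wnt signals from their receptors. The members described here are SFRP1, SFRP2, SFRP4, SFRP5, FRZB, WIF1, DKK1 and DKK3. They were taken as all noncontrol array probes that carry 1 of these gene names. All 8 genes had a probe, 16 probes of 43653 in all, and 8 genes of 25381 gene names on the array. The array was a 1-colour Agilent oligonucleotide design for cattle, and each of the 20 samples was hybridised to 1 array. The samples were endometrium, the inner lining of the uterus, from 10 female cows that were each biopsied in 2 periods after calving. The late samples (n = 10) were taken 343 to 436 days after parturition (mean 388.9 ± 27.5, SD), and the early samples (n = 10) 42 to 86 days after it (mean 60.1 ± 13.3, SD). In both periods the biopsy was taken with forceps 7 days after oestrus, from the horn ipsilateral to the corpus luteum. No treatment or genotype distinguishes the periods, and breed and age are not given in the sources used here.

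Wnt ligands bind Frizzled receptors together with the coreceptors LRP5 and LRP6, and the signal stabilises beta-catenin. The secreted Frizzled-related proteins SFRP1, SFRP2, SFRP4, SFRP5 and FRZB carry a cysteine-rich domain like that of the Frizzled receptors and bind Wnt ligands. WIF1 also binds Wnt ligands, through a domain of its own followed by EGF-like repeats. DKK1 acts on the receptor side by binding LRP5 and LRP6, and DKK3 is a divergent member of the Dickkopf family whose action on Wnt signalling is less settled. In the uterus Wnt signalling takes part in the formation of glands and in the preparation of the endometrium for pregnancy, and DKK1 is known as a progesterone-responsive gene of the endometrium.

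The probes are 60 bases long, and their positions are those of the array files on the HGSC Btau_3.1 build. A value belongs to its probe, so the probes of WIF1 and DKK1, for which both probes are read below, are shown with the SFRP5 probe that was measured on every array and with the SFRP4 probe that reaches the end of the reading frame. The WIF1 probes lie on the plus strand at chr5:52697260-52701830 (position 794 of the transcript) and chr5:52701871-52707762 (position 894), and each spans far more genomic bases than its length, so each crosses an exon junction.
WIF1 794: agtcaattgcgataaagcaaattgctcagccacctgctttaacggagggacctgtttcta
WIF1 894: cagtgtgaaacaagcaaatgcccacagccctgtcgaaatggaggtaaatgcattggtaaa
DKK1 729: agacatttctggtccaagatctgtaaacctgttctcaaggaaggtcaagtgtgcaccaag
DKK1 861: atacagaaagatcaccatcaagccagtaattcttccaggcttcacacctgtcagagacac
SFRP5 913: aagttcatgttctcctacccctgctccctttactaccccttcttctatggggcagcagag
SFRP4 1249: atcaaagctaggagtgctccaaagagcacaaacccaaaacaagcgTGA
The DKK1 probes lie on the minus strand at chr26:7003779-7003838 (position 729) and chr26:7003647-7003706 (position 861). The SFRP5 probe lies on the plus strand at chr26:20380935-20380994, and the SFRP4 probe on the minus strand at chr4:51752728-51752787. Of the SFRP4 probe the first 48 bases are shown, up to a stop codon in the frame of its first base, which is in capitals.

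The remaining probes are given by position only. SFRP1 was read by probes at chr27:38624484-38624543 (position 4161 of the transcript), chr27:38624465-38624485 (position 2510, placed over part of its length) and chr27:38627013-38627072 (position 1637), all on the minus strand. The genomic placement of the probe at position 2510 touches the end of that at 4161 and does not lie between those at 1637 and 4161. Its placement is therefore uncertain. SFRP2 was read on the plus strand at chr17:4164379-4164438 (position 1855) and chr17:4164242-4164301 (position 1718). The other SFRP4 probe lies at chr4:51752397-51752456 (position 1580, minus strand) and the other SFRP5 probe at chr26:20381239-20381298 (position 1217, plus strand). FRZB was read on the plus strand at chr2:14117191-14117250 (position 1397) and chr2:14118056-14118115 (position 2263), and DKK3 by 1 probe at chr15:39669149-39669208 (position 2408, plus strand).

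Levels are log2 of the processed spot signal minus the array's 75th percentile, so 0 is the level of a probe at that percentile. A level belongs to 1 probe and is not compared between genes. Each gene is represented by its probe of highest mean. Of the 16 probes, 15 were well above background on at least 8 of 20 arrays and 13 on all 20. Between 71.8% and 80.2% of the spots of an array were well above background, and no noncontrol spot was saturated.

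Before the results, 2 early arrays stood apart from the rest of their period. Over all genes the early array of cow 4 had a median correlation of 0.941 with the other early arrays and that of cow 9 one of 0.965, against 0.974 to 0.985 for every other array with its own period. Results below are given with all arrays. The differences between periods, the early slopes, the pairs of members and the gene lists are also given without cows 4 and 9, and the likeness of other genes is not. The arrays lay on 5 slides, of which 2 held late samples only, 2 held early samples only and 1 held late samples of cows 1 and 2 beside early samples of cows 9 and 10. Slide and period are therefore largely shared, and within-slide values are given after the results. Of the 12 stromal fibroblast and 12 epithelial markers listed, 11 of each were on the array, and all of these passed the filter. So did 8 of 8 smooth muscle and 9 of 9 macrophage markers. Of all 25381 gene names 19422 passed, so that these counts do not identify the tissue.

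The first question was how the antagonists in the late samples compared with the early samples of the same cows. None of the 8 members passed the test (limma with cow as a block, Benjamini-Hochberg adjustment over 19422 genes, threshold 0.05), where 256 genes or 1.32% of all did, 0.777% lower late and 0.541% higher late. At an unadjusted p under 0.05 there were 5 of 8 members, against 22.6% of all genes. Of the 8 members, 4 were lower late at that p, against 10.2% of all genes, and 1 was higher late, against 12.4%. In no member did the late and early groups lie apart without overlap, as they did in 24 genes or 0.124% of all. The mean difference was below 0 for 6 of 8 members, and its median over the members was -0.34 log2 units, against 0.016 over all genes. In bulk tissue, fewer cells of a type and less RNA per cell cannot be told apart.

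**Figure D1:**
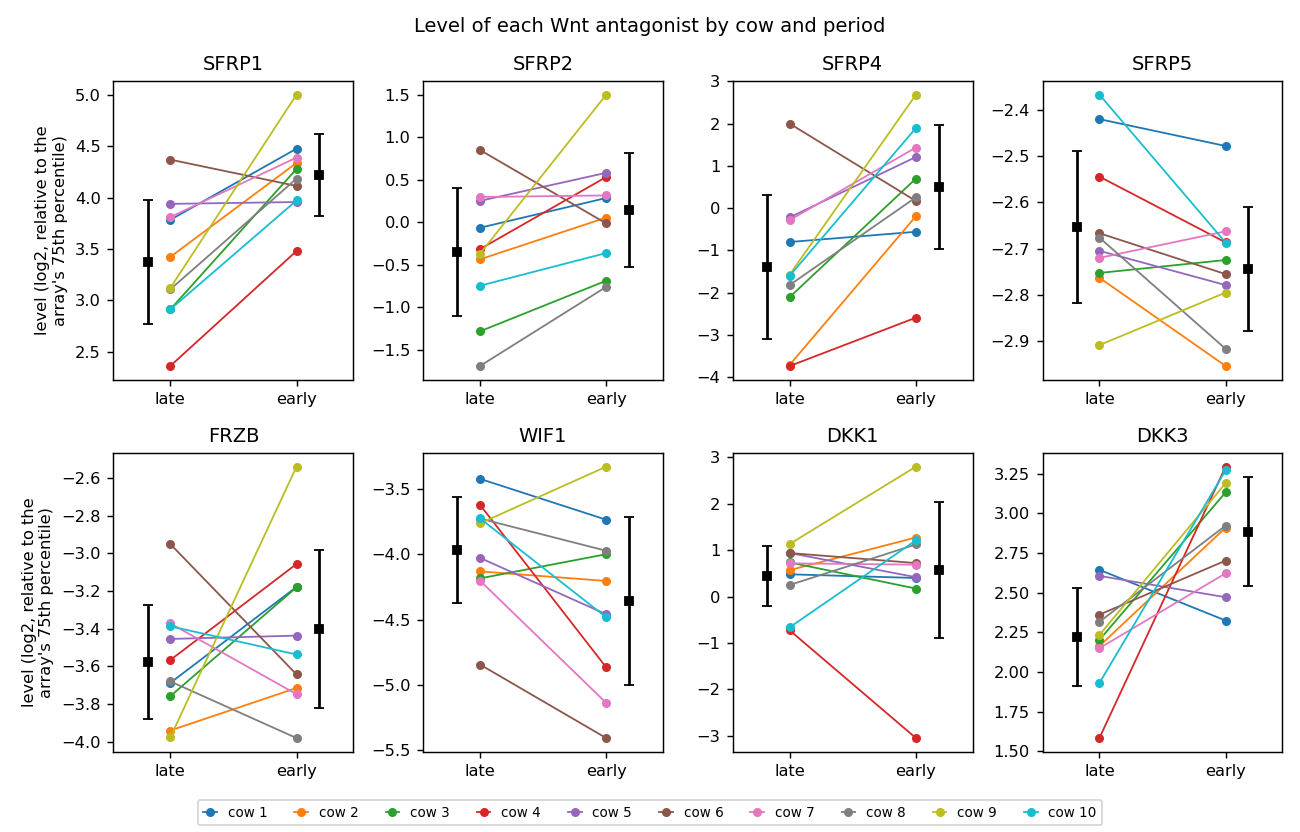
Level of each Wnt antagonist (log2 signal minus the array's 75th percentile, vertical axis) in the late and early samples, 1 point per cow, with lines joining the 2 samples of a cow and bars for the mean ± SD (n = 10 each). The late samples of SFRP1, SFRP4 and DKK3 lie mostly below the early ones, and the groups of SFRP5 and FRZB overlap over most of their range.

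SFRP1, a Frizzled-related protein, was the member nearest to the threshold. Its level in the late samples ran from 2.36 in cow 4 to 4.37 in cow 6 with a median of 3.27, and in the early samples from 3.48 in cow 4 to 5.002 in cow 9 with a median of 4.23. The groups overlapped, and 6 of 10 late samples lay below every early sample. SFRP1 averaged 3.37 ± 0.60 in the late samples and 4.22 ± 0.40 in the early samples (SD, n = 10 each). The late minus early difference was -0.85 ± 0.18 (SE, 95% interval -1.25 to -0.45), a 1.80-fold lower signal late (1.36 to 2.37). It was higher late in 1 of 10 cows, cow 6. The adjusted p in limma was 0.0503 (unadjusted 0.000668), which missed the threshold: SFRP1 ranked 258 by p, and 256 genes passed.

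The other SFRP1 probes gave larger differences. The probe at position 2510 differed by -1.33 ± 0.27 and that at 1637 by -1.23 ± 0.32 (SE). Fitted probe by probe in limma, the adjusted p was 0.0458 for position 2510, 0.0513 for 4161 and 0.0722 for 1637, so that 1 of the 3 passed. Over the 20 arrays these probes correlated with the reported one at 0.91 and 0.87.

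SFRP4, a Frizzled-related protein of the endometrial stroma in humans, had the widest differences within cows. Its level in the late samples ran from -3.74 in cow 4 to 1.998 in cow 6 with a median of -1.59, and in the early samples from -2.59 in cow 4 to 2.69 in cow 9 with a median of 0.48. Only 2 late samples lay below every early one, and 9 of 10 lay below the early median. Within cows the difference was -4.26 in cow 9, -3.52 in cow 2, -3.50 in cow 10, -2.81 in cow 3 and -2.07 in cow 8. It was -1.72 in cow 7, -1.43 in cow 5, -1.14 in cow 4, -0.24 in cow 1 and 1.83 in cow 6. The mean was -1.39 ± 1.70 in the late samples and 0.50 ± 1.47 in the early samples (SD, n = 10 each). The mean difference of -1.89 ± 0.51 (SE, 95% interval -2.997 to -0.77) is a 3.69-fold lower signal late (1.71 to 7.99), and ranked 16 among the 19422 genes from the lowest difference upwards. The adjusted p in limma was 0.0806 (unadjusted 0.00320). The probe at position 1249, shown above, differed by -1.92.

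SFRP2, another Frizzled-related protein that binds Wnt ligands, was also lower late on average, over a narrower range than SFRP4. The late samples ran from -1.69 in cow 8 to 0.85 in cow 6 with a median of -0.35, and the early ones from -0.76 in cow 8 to 1.5 in cow 9 with a median of 0.17. The groups overlapped over most of their range, with 2 late samples below every early one. The difference was -0.50 ± 0.20 (SE, 95% interval -0.94 to -0.05), below 0 in 9 of 10 cows, with an adjusted p in limma of 0.182 (unadjusted 0.0312).

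FRZB and SFRP5 complete the Frizzled-related group. FRZB ran from -3.98 in cow 9 to -2.95 in cow 6 in the late samples and from -3.98 in cow 8 to -2.54 in cow 9 in the early samples. Its difference was -0.18 ± 0.18 (SE, 95% interval -0.57 to 0.22), above 0 in 4 of 10 cows, with an adjusted p in limma of 0.578. SFRP5 ran from -2.91 in cow 9 to -2.37 in cow 10 in the late samples and from -2.95 in cow 2 to -2.48 in cow 1 in the early samples. The groups overlapped over most of their range for both genes. The SFRP5 difference of 0.091 ± 0.06 (SE, 95% interval -0.05 to 0.23) had an adjusted p of 0.405 in limma. Over the whole Frizzled-related group, 4 of 5 members had a difference below 0, with a median of -0.50.

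WIF1, which binds Wnt ligands outside the cell, was the member with the largest difference above 0. It ran from -4.84 in cow 6 to -3.42 in cow 1 in the late samples with a median of -3.89, and from -5.41 in cow 6 to -3.33 in cow 9 in the early samples with a median of -4.33. In 9 of 10 late samples the level lay above the early median. The difference was 0.40 ± 0.15 (SE, 95% interval 0.06 to 0.73), a 1.32-fold higher signal late (1.04 to 1.66), above 0 in 8 of 10 cows. The adjusted p in limma was 0.164 (unadjusted 0.0240). The other WIF1 probe, shown above with its neighbour, differed by 0.49 and correlated with it at 0.79 over the 20 arrays.

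Among the Dickkopf members, DKK3 was nearer to the threshold than DKK1. DKK3 ran from 1.58 in cow 4 to 2.64 in cow 1 in the late samples with a median of 2.22, and from 2.32 in cow 1 to 3.29 in cow 4 in the early samples with a median of 2.92. All 10 late samples lay below the early median, and 7 of 10 lay below every early sample. The mean was 2.22 ± 0.31 in the late samples and 2.88 ± 0.34 in the early samples (SD, n = 10 each). The difference was -0.66 ± 0.18 (SE, 95% interval -1.06 to -0.27), a 1.59-fold lower signal late (1.20 to 2.09), and was above 0 in cows 1 and 5. The adjusted p in limma was 0.0839 (unadjusted 0.00352).

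DKK1, the inhibitor of the LRP5 and LRP6 coreceptors, differed little on average and much between cows. The late samples ran from -0.73 in cow 4 to 1.13 in cow 9 with a median of 0.64, and the early samples from -3.05 in cow 4 to 2.80 in cow 9 with a median of 0.70. The early range thus held the whole late range. Within cows the difference ran from -1.87 in cow 10 and -1.67 in cow 9 to 2.32 in cow 4, and was above 0 in 6 of 10 cows. The mean difference was -0.14 ± 0.35 (SE, 95% interval -0.90 to 0.62), with an adjusted p of 0.837 in limma. The 2 DKK1 probes shown above correlated at 0.997 over the 20 arrays and differed by -0.14 and -0.13.

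**Figure D2:**
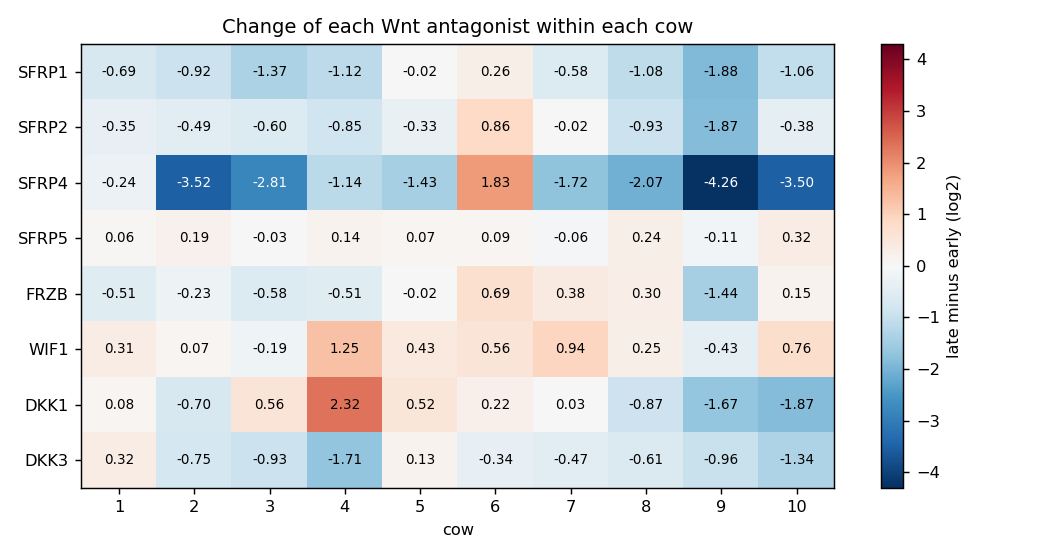
Late minus early difference of each Wnt antagonist (down the page) in each cow (across), on the log2 scale, with the value printed in each cell. Cow 9 has all 8 members below 0 and cow 6 has 1, and the SFRP4 row holds the widest differences, from -4.26 to 1.83.

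The members did not all follow the same cows. In cow 9 all 8 members were lower late, and in cow 6 only DKK3 was. The early sample of cow 9 held the highest early level of 6 members, namely SFRP1, SFRP2, SFRP4, FRZB, WIF1 and DKK1. The early sample of cow 4 held the lowest early level of SFRP1, SFRP4 and DKK1 and the highest of DKK3. Its late sample held the lowest late level of SFRP1, SFRP4, DKK1 and DKK3. The late sample of cow 6 held the highest late level of SFRP1, SFRP2, SFRP4 and FRZB.

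Some genes tied to the stage of the oestrous cycle set the early sample of cow 4 apart as well. OXTR, the oxytocin receptor, stood at 4.29 there, against -4.12 to -0.55 in the late samples, -4.37 to 0.47 in the early samples of the other cows apart from cow 9, and -0.39 in cow 9. PGR, the progesterone receptor, stood at -0.08, against -1.80 to -1.15 in the late samples and -2.04 to -1.33 in those other early samples. Both genes were picked after their values were seen. Among the early samples ESR1 and CCN2 were also highest in cow 4, while FGF2 and TRPC6 were lowest there. LIFR and FABP3 lay within the range of the other early samples. Over 8 such genes none passed the test, with a median difference of -0.12, CCN2 at -0.64 (adjusted p in limma 0.157) and FGF2 at 0.15 (0.3004). Their part in the DKK1, SFRP4 and DKK3 values of cow 4 was not tested. Without cows 4 and 9, when 202 genes passed, the difference was -0.68 for SFRP1 (adjusted p in limma 0.0922), -1.68 for SFRP4 (0.139), -0.28 for SFRP2, 0.39 for WIF1 and -0.50 for DKK3 (0.155). The DKK1 difference was -0.26, that of SFRP5 0.11 and that of FRZB 0.024, above 0.

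**Figure D3:**
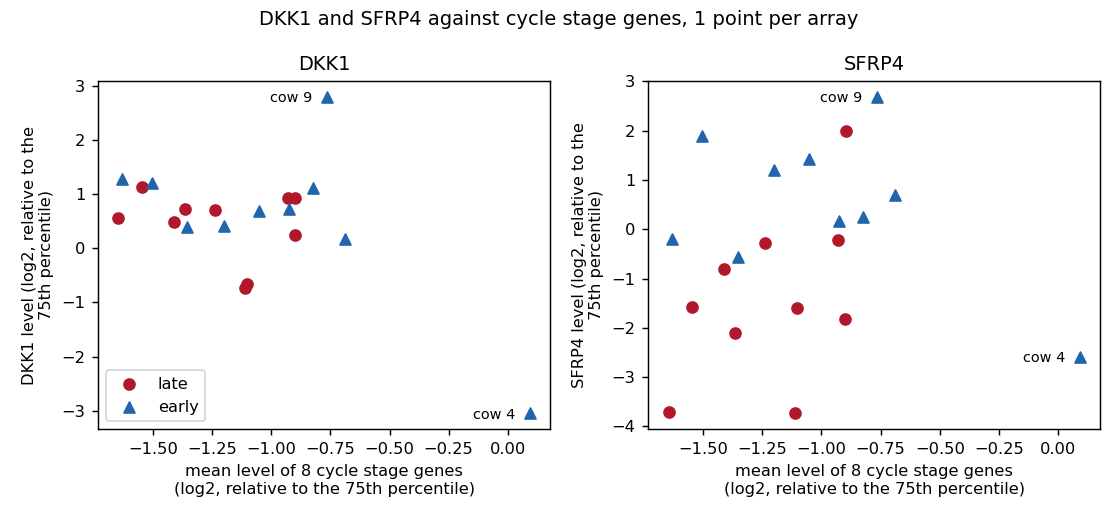
Levels of DKK1 and SFRP4 (log2 signal minus the array's 75th percentile, vertical axes of the 2 panels) against the mean level of the 8 cycle stage genes (horizontal axis, same scale), 1 point per array for the late and early samples. The early sample of cow 4 stands alone at the highest mean of the 8 genes and the lowest DKK1 level, -3.05, and has an SFRP4 level of -2.59. FGF2 and TRPC6, which enter that mean, were lowest in that sample among the early ones.

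Markers of the tissue's cell types were read beside these values. The stromal fibroblast list, 11 genes, had 1 gene that fell, HAND2, a transcription factor of the endometrial stroma (-0.87, adjusted p in limma 0.0455), and a median difference of -0.25. Its mean level ran from 3.56 to 4.32 in the late samples and from 3.86 to 4.68 in the early samples, and was higher late only in cows 5 and 6. Without cows 4 and 9 none of the 11 passed, HAND2 included, and the median was -0.076. The epithelial list, 11 genes, had none past the test and a median of 0.32, with mean levels of 0.97 to 1.90 late and -0.10 to 1.69 early. Its genes of smallest p were the keratin KRT18 at 0.42 (adjusted p in limma 0.181) and the tight junction protein CLDN3 at 0.62 (0.189). Of the macrophage list 5 of 9 genes fell, among them GPNMB (-2.94), CD68 (-1.79), VSIG4 (-1.47) and MSR1 (-0.85), and of the T and NK cell list NKG7 (-1.20) fell. The mean level of the macrophage list ran from -1.83 to -0.31 in the late samples and from -0.99 to 0.79 in the early samples, and was lower late in 10 of 10 cows. Without cows 4 and 9, 5 genes of the macrophage list passed, the 4 named and TYROBP. Smooth muscle, 8 genes, had none past the test, and its mean level ran from 1.64 to 2.81 late and from 1.42 to 3.31 early. Its difference was highest in cow 6 (1.26) and lowest in cow 9 (-1.57), as were those of SFRP1, SFRP2, SFRP4 and FRZB. In cows 1 to 5 it was 0.58, -0.12, 0.048, -1.12 and 0.88, where SFRP4 was at -0.24, -3.52, -2.81, -1.14 and -1.43. The smooth muscle difference was 0.61, -0.20 and -0.29 in cows 7, 8 and 10, with SFRP4 at -1.72, -2.07 and -3.50. The stromal list also had its highest and lowest differences in cows 6 (0.20) and 9 (-0.99), and the epithelial list its highest in cow 9 (1.22). The smooth muscle genes of smallest p were DES at 0.34 and CNN1 at -0.34. The endothelial list (ENG at -0.31, CDH5 at -0.29) and the red blood cell list (AHSP at 0.29, HBA at 0.48) held no gene past the test. The part of any of these cell types in the values of the members was not tested.

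Slide also differed between the periods. With slide as a further fixed block the differences were -0.085 ± 0.52 for SFRP1, -0.086 ± 0.93 for SFRP2 and -1.69 ± 2.08 for SFRP4 (SE). They were -0.47 ± 0.79 for FRZB, -2.73 ± 0.94 for DKK1, 0.16 ± 0.37 for SFRP5, -0.27 ± 0.88 for WIF1 and 0.39 ± 0.67 for DKK3. WIF1 and DKK3 thus turned direction, each with a value smaller than its SE, and no gene passed (limma, 366 genes at an unadjusted p under 0.05). With slide as a random block SFRP1 stood at -0.86 (adjusted p in limma 0.0818), SFRP4 at -1.94 (0.121) and DKK3 at -0.66 (0.131). Within the shared slide alone, 2 late against 2 early samples of other cows, the difference was -0.89 for SFRP1, -0.82 for SFRP2, -4.55 for SFRP4, -0.78 for FRZB and -0.83 for DKK3. There it was 0.13 for WIF1, 0.15 for SFRP5 and -1.48 for DKK1, and no gene passed (limma, 1723 genes at an unadjusted p under 0.05). Without the early sample of cow 9 on that slide, which leaves 2 late samples against 1 early sample, SFRP1 stood at -0.37, SFRP2 at 0.11, SFRP4 at -4.15 and DKK3 at -0.87.

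**Figure D4:**
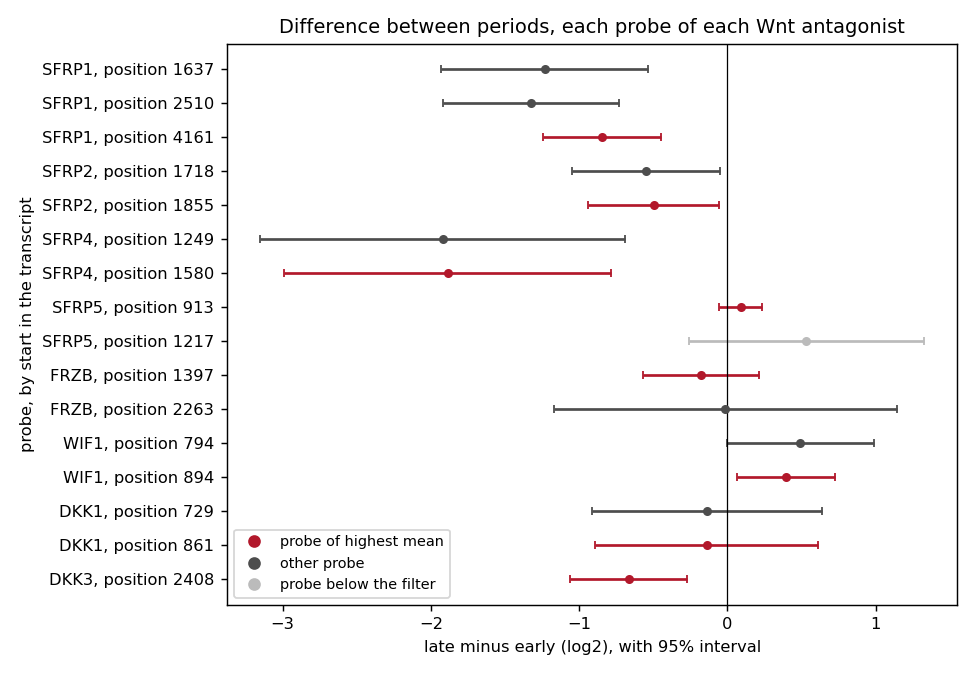
Late minus early difference (log2, horizontal axis) of every probe of the Wnt antagonists, with bars for the 95% interval, 1 line per probe named by gene and position in the transcript. The 3 SFRP1 probes, both SFRP4 probes and both SFRP2 probes lie below 0, and both WIF1 probes lie above 0.

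Whether the levels moved with the exact day within a period was tested next. No member passed in either period, where no gene of 19422 did (0% of all genes; at an unadjusted p under 0.05, 1099 genes or 5.66% early and 267 genes or 1.37% late). At an unadjusted p under 0.05 no member passed either. The smallest p was that of DKK3 in the early period, with a slope of -0.14 ± 0.08 log2 units per 10 days (SE, n = 10, unadjusted p in limma 0.0936, adjusted 0.921). In the late period it was that of DKK1, with -0.11 ± 0.07 per 10 days (unadjusted p in limma 0.111). Without cows 4 and 9 no member passed in the early period and no gene did (limma, 953 genes at an unadjusted p under 0.05), and the DKK3 slope was -0.096 ± 0.084. The smallest p there was that of SFRP2, with a slope of 0.23 ± 0.10 (SE, unadjusted p in limma 0.0528, adjusted 0.998).

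The late minus early differences of the members were then set against each other over the 10 cows, in 28 pairs. SFRP1 and SFRP2 were the only pair past the adjusted threshold, with r = 0.88 (permutation p 0.00132, adjusted 0.0370) and rho = 0.93 (permutation p 0.00033, adjusted 0.00924). Without the 2 cows farthest from the median of SFRP1, cows 5 and 6, r was 0.90 (permutation p 0.00466, adjusted 0.130). Without those farthest from the median of SFRP2, cows 6 and 9, it was 0.59 (permutation p 0.124, adjusted 0.453), and without cows 4 and 9 it was 0.79 (permutation p 0.0126, adjusted 0.177). The adjusted p thus missed the threshold in each of these sets of 8 cows, and r was lowest without cows 6 and 9. After quantile normalization r was 0.86 (permutation p 0.00260, adjusted 0.0606), and no pair passed. At an unadjusted permutation p of r under 0.05 there were 5 pairs. Pairs of other genes were not tested, so the counts of pairs have no share over all genes beside them. SFRP2 with FRZB gave r = 0.82 (adjusted permutation p 0.0667), which dropped to 0.28 without cows 6 and 9. SFRP1 with SFRP4 gave 0.79 (adjusted permutation p 0.0667), 0.66 without cows 5 and 6 and 0.42 without cows 6 and 9. SFRP1 with FRZB gave 0.76 (adjusted permutation p 0.0843), which was 0.76 without cows 5 and 6 and 0.31 without cows 6 and 9. SFRP2 with SFRP4 gave 0.75 (adjusted permutation p 0.0947), and 0.051 without cows 6 and 9. Without cows 6 and 9 none of the 5 pairs had an unadjusted permutation p of r under 0.05, so that these r values rested at least in part on those cows. The rho of SFRP1 with SFRP2 was 0.86 there (permutation p 0.0106, adjusted 0.298). Leaving cows 6 and 9 out of every pair was chosen after seeing the data. No slide held enough cows in both periods for a value within a slide.

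Other genes whose levels ran most like those of a member over the 20 arrays are given as a description, since the points share their arrays and cows. SFRP1 was most like CERCAM (r = 0.91), RNF34 (0.91) and FBLN2 (0.89), and SFRP4 most like RNF34 (0.89), FOLH1 (0.88) and AQP9 (0.87). SFRP2 was most like NLN (0.89), QSER1 (0.87) and TSHZ1 (0.87), and FRZB most like BNC2 (0.89), ARSI (0.89) and CLEC11A (0.87). DKK3 was most like DPYSL3 (0.90), URGCP (0.89) and CHRD (0.87), and DKK1 most like PCDH9 (0.92), GNAO1 (0.91) and SMARCA2 (0.90). For SFRP5 the nearest were TGM6 (0.80), MAP3K14 (0.78) and LDLRAD3 (0.78), and for WIF1 ASCC1 (0.80), SLC26A3 (0.74) and AKR1B10 (0.74). Of these genes RNF34 fell between the periods (-0.48, adjusted p in limma 0.0426).

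The other genes of the pathway gave no call either. Over 6 lists of 71 genes measured, 0 passed the test in limma, against 1.32% of all genes. At an unadjusted p under 0.05 there were 20, 15 lower late and 5 higher, or 28.2% against 22.6% of all genes. Of the 71 genes 48 had a difference below 0, 67.6% against 47.1% of all genes. Without cows 4 and 9, 0 passed in limma, 18 had an unadjusted p under 0.05, and 41 had a difference below 0, 57.7% against 46.1% of all genes. Among 9 other Wnt inhibitors, secreted or on the membrane, the median difference was -0.28, and the smallest p values were those of IGFBP4, an IGF-binding protein that also blocks Wnt receptors (-0.55, adjusted p 0.0712), and APCDD1, a membrane inhibitor of Wnt signalling (-0.40, adjusted p 0.105). The 10 Wnt ligands had a median of -0.18, with WNT8B at -0.62 (adjusted p 0.108) and WNT3 at 0.45 (adjusted p 0.109). The 14 Frizzled receptors and coreceptors had a median of -0.20, with FZD1 at -0.30 (adjusted p 0.131) and FZD9 at 0.25 (adjusted p 0.207).

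On the side that strengthens the signal, a list of R-spondins, LGR receptors and NDP had a median of 0.24 over 6 genes. RSPO2, a secreted agonist, was measured well above background on 7 late and 4 early arrays only. Its difference of 1.14 (adjusted p in limma 0.0592) therefore rests in part on arrays near background, and its size is uncertain. NDP, which activates a Frizzled receptor, differed by -0.63 (adjusted p 0.201). The 20 transducers had a median of -0.08, with DVL3 at -0.50 (adjusted p 0.164) and CSNK1A1 at -0.17 (adjusted p 0.180). The 18 target genes had a median of -0.13, with CD44, a cell adhesion receptor, at -0.73 (adjusted p 0.102).

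**Figure D5:**
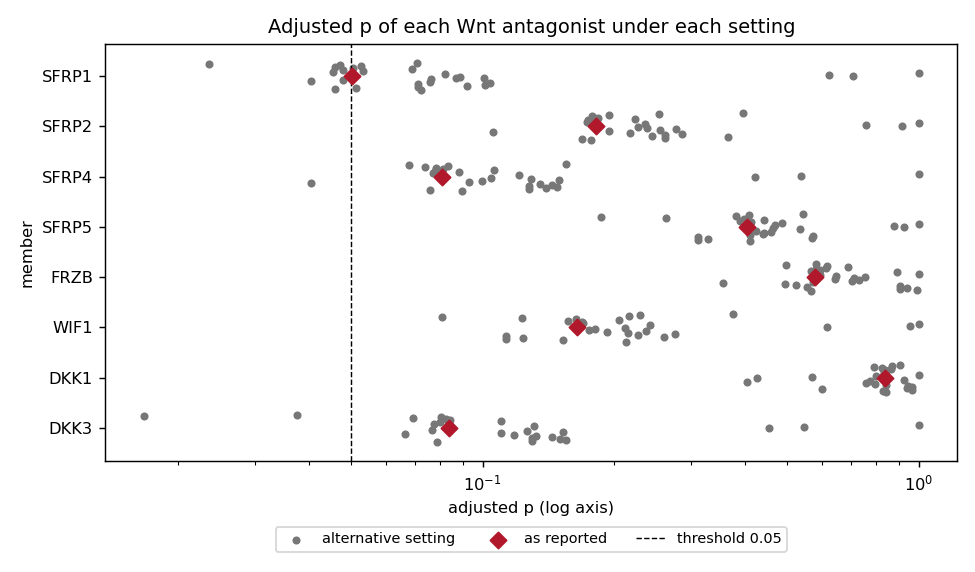
Adjusted p (log axis, horizontal) of each Wnt antagonist under every setting tried, grey points, and as reported, red diamonds, with the threshold of 0.05 as a dashed line. SFRP1 falls on both sides of the threshold, SFRP4 and DKK3 pass it in 1 and 2 settings, and the other 5 members in none.

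The call of SFRP1 depended on the setting. It passed in 8 of 29 alternatives, with adjusted p values from 0.0235 to 0.99991 in limma. Among these 8 are the probe at position 2510 and 2 of the 10 fits that leave out a cow, 0.0479 without cow 5 and 0.0404 without cow 6. SFRP4 passed without cow 6, at -2.30 with an adjusted p of 0.0404. DKK3 passed without the block on cow (adjusted p 0.0375) and with cow as a random effect (0.0168).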

How the data were processed

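RNA of 20 endometrial samples, 2 from each of 10 cows, was labelled with Cy3, per the labels' protocols, and read with Agilent Feature Extraction 10.5.1.1, per the submitters' processing notes. The deposited intensity values are processed spot signals, per the file headers. The authors' deposited value table holds log2 values; against the scanner values it was log2 minus the 75th percentile, with each probe's median over the 20 arrays subtracted (correlation at least 0.99997, column medians -0.153 to 0.0509). Scale, centring and direction were thus known, and it served as an alternative. All value columns were used.

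Without control spots and spots marked as outliers, and with a probe's spots averaged, there were 43653 probes. A RefSeq table of ARS-UCD2.0 named 22205 by accession, 9847 by symbol, 372 by synonym and 1171 by gene number, and 10058 kept the array's name. Probes well above background on at least 8 arrays numbered 33763 and gave 19422 genes, 208 of them with a missing value. The number of arrays limits the precision.

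Tests used limma 3.58.1 in R 4.3.3 (lmFit, eBayes, two-sided, Benjamini-Hochberg, threshold 0.05) with cow as a fixed block, slopes per 10 days within a period, and 100000 resamples for correlations in scipy 1.17.1. The pairing comes from the design text, the titles and the animal numbers; in the late period the source names number the cows differently from the titles. Deviations from the period means correlated between -0.11 and 0.76 within cows (median 0.42), against a median of -0.028 between cows, and were above 0.1 in 8 of 10 cows. On simulated data of 19214 genes the late against early test recovered 50% of changes of 0.5 on the log2 scale, 86% of 1, 98% of 2 and 98% of 3, with 9 false calls.

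The members and gene lists were chosen with earlier results of these data known. Named genes are all members, in each list up to 4 past the threshold or else the 2 of smallest p, and the 3 genes most like each member. OXTR, PGR, ESR1, LIFR, TRPC6, FABP3 and TYROBP fall outside this rule. Alternatives were no block or a random block on cow, normexp (offset 50), quantile normalization, median scaling, the deposited table, other filters, other probe rules, a robust, trended variance, slide as a block and leaving out cows. Chosen after seeing the data were leaving out the early sample of cow 9 within the shared slide, leaving out cows 4 and 9 from slopes, pairs and lists, and leaving out from the pairs cows 6 and 9 or the 2 farthest on the second member.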

Additional observations from a re-analysis of the deposited data

Results flagged for a closer look

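The early DKK1 level of cow 4, -3.05, stood far from the other early samples, the nearest of which was 0.17. It was the only 1 of 24 sets of 10 samples past the limit for an extreme value, where chance gives about 5% of sets.

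A second SFRP5 probe, at position 1217 of the transcript, was left out of the tests because it was well above background on too few arrays. It was well above background on 4 late arrays (cows 1, 4, 5 and 7) and on 0 early arrays. Its mean signal in those periods gave no fold, since the late mean of -7.23 was below the floor of -6.88 for the early arrays.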

How the results depend on the processing

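Over all members, 205 of 223 alternative values kept their direction and their side of the threshold, 11 came to pass it and 7 turned direction. No member passed as reported, so none could lose a call, and a smaller difference of the same sign counted as kept. Leaving out cow 9 and leaving out its early sample gave the same values, and both entered this tally. The count of genes past the threshold, 256 as reported, was 119 with no block on cow, 724 with the replicate block as a random effect (cow), 114 with no filter and 35 with slide as a random block. It was 0 with slide as a further fixed block (366 genes at an unadjusted p under 0.05 in limma), 0 within the shared slide (1723) and 0 there without the early sample of cow 9 (2195), where a single early sample is left, assumed to vary like the late ones. Within the shared slide, samples this few could hardly pass. With the early sample of cow 9 left out it was 115, and 35 to 159 when each cow was left out in turn, lowest without cow 10. Of the calls 41.0% were higher late as reported, 53.1% with normexp, 51.7% with quantile normalization and 51.0% with median scaling. With slide as a fixed block WIF1 was -0.27 ± 0.88 and DKK3 0.39 ± 0.67 (SE). Within the shared slide without the early sample of cow 9 SFRP2 was 0.11. DKK1 was 0.031 without cow 9 or its early sample and 0.054 without cow 10 (-0.41 to 0.054 over all cows left out in turn), and FRZB was 0.024 without cows 4 and 9. The early slope gave 0 to 1 genes when each cow was left out, 1 without cow 10. Of the pairs of members, 0 passed without the 2 cows farthest from the median of either member, 0 without cows 4 and 9, 0 without cows 6 and 9 and 0 after quantile normalization (1 to 6 at an unadjusted permutation p of r under 0.05). The cause of these differences was not tested.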

Other observations

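The members differed in how much they varied between cows. The spread of SFRP4 between cows was above that of 99.6% of genes in the late samples and 98.1% in the early samples, and that of DKK1 above 87.8% and 98.1%. The spread of SFRP5 was above only 16.2% of genes in the late samples and 4.70% in the early samples. SFRP1 lay at 85.6% in the late samples and 58.2% in the early samples. These are descriptions with no test, and part of the early spread of DKK1 is the single value of cow 4.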
